A study of Homo sapiens with 2 samples.

Results

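The annexin genes examined here are ANXA1, ANXA2, ANXA3, ANXA4, ANXA5, ANXA6, ANXA7, ANXA8 and ANXA11, taken as the 9 of 64083 nuclear genes in GENCODE release 44 (GRCh37) that carry these names. Cytosine methylation of their transcripts was read from RNA bisulfite sequencing (BS-Seq) of MCF10A, a line of normal mammary epithelium, and of MDA-MB-468, a line from a breast cancer. No experimental treatment or edit of either line is described, but their culture media differed. The MCF10A medium held horse serum, epidermal growth factor, hydrocortisone (a glucocorticoid) and insulin. That of MDA-MB-468 held fetal bovine serum, so line and medium cannot be told apart. Poly(A)+ RNA of both was treated with sodium bisulfite at 60 degrees for 8 hours, and each line gave 1 library, so there are no replicates and every test below compares 2 libraries, not the cell lines. For each cytosine the tables hold the number of unconverted reads, counted as m5C, and of converted reads. The members' sites are those with at least 10 such reads on a same-strand exon. These were present for 8 of the 9 genes in MCF10A (1611 sites) and for 7 of the 9 in MDA-MB-468 (1034 sites).

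Annexins bind phospholipid membranes when calcium rises. All share a core of repeated helical domains, and the N-terminal tail before that core differs from member to member and sets the partners of each. They take part in membrane repair, vesicle traffic and the resolution of inflammation, and several are abundant in epithelial cells. In RNA, 5-methylcytosine (m5C) withstands bisulfite, which turns unmodified cytosine into uracil. Cytosines in stable stems, which bisulfite reaches poorly, stay unconverted as well.

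A site was called m5C when its unconverted reads exceeded the background of its library (1.99% of counts in MCF10A and 1.81% in MDA-MB-468) by a one-sided Fisher's exact test with Benjamini-Hochberg adjustment over all kept sites at 0.05. The called sites of the annexin genes lay on 3 transcripts. The places below are shown because calls on each of the 3 rest on them, 5′ to 3′ on the minus strand of GRCh37, with the cytosines called in at least 1 line in capitals.
ANXA11, chr10:81929040-81929069: ctgtaccctggggCCCCtggggctggctac
ANXA2, chr15:60656667-60656696: attttgaccaaccgCagcaatgcacagaga
ANXA5, chr4:122602854-122602883: attattgcttCaaggaCaCctgaagaactg

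In the ANXA11 window the capitals form a run of 4 neighboring cytosines directly beside 4 guanines. The ANXA2 and ANXA5 windows hold neither such runs of cytosines nor runs of guanines.

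ANXA11 carried 11 m5C sites in MCF10A, 10 of which were also called in MDA-MB-468, all within exon 5 of the 16 exons of its MANE Select transcript, the reference isoform, and all within the coding sequence (CDS). ANXA11 (chr10:81910645-81965328, minus strand) binds the calcium sensor PDCD6 and tethers RNA granules to moving lysosomes, and its long tail is rich in glycine, tyrosine and proline. The run shown lay at codons 77 to 78 of 505. The 10 sites called in both lines were all on ANXA11, and they made up 90.9% of the members' sites called in MCF10A and 71.4% of those called in MDA-MB-468. Neighboring sites share reads, and the overlap over all called sites is not given here. These shares therefore show no trait of the members.

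The run shown for ANXA11 was unconverted in most reads. In MCF10A its 4 cytosines had ratios of 81.8% (27 of 33 reads), 84.8% (28 of 33), 80% (28 of 35) and 87.5% (35 of 40, 95% Wilson interval 73.9% to 94.5%) in 5′ to 3′ order. In MDA-MB-468 the same cytosines had 57.1% (8 of 14), 53.8% (7 of 13), 53.3% (8 of 15) and 68.8% (11 of 16, interval 44.4% to 85.8%). All 4 were therefore higher in the MCF10A library. The other 7 cytosines of this 30-nt window were not called in either line, at 0% to 6.90% in MCF10A and 0% to 9.09% in MDA-MB-468.

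Adjusted p by Fisher's exact test for the called ANXA11 sites ran from 5.655e-51 to 6.076e-05 in MCF10A and from 4.571e-14 to 6.884e-05 in MDA-MB-468. Adjacent cytosines are read by the same molecules, so neighboring sites are not independent and these values count the reads more than once. Summed over its 4 sites, the run shown had 118 unconverted of 141 counts (83.7%) in the MCF10A library, against 34 of 58 (58.6%) in the MDA-MB-468 library.

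**Figure D1:**
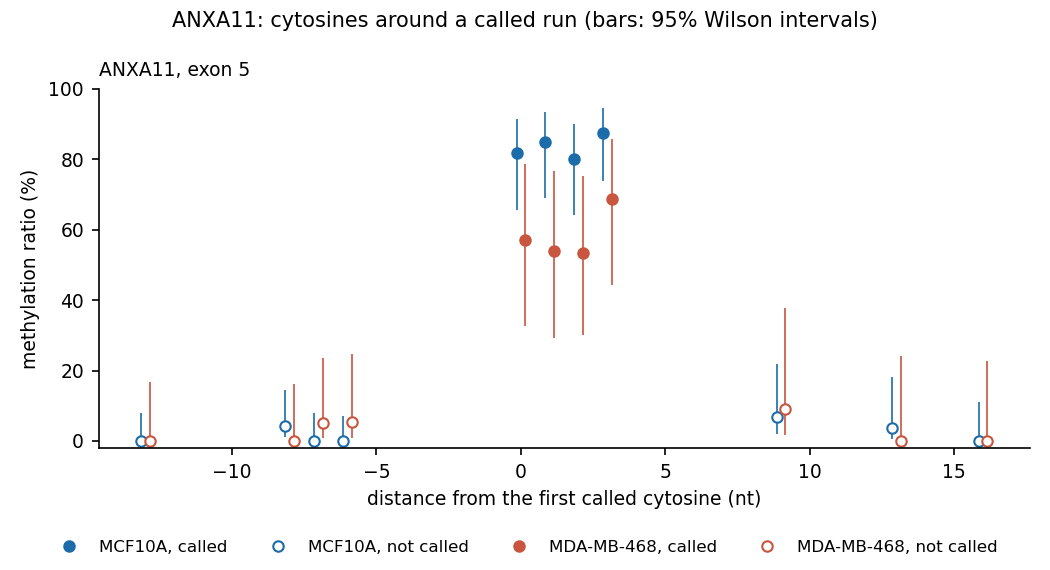
Methylation ratio (percent unconverted reads, y axis) of every cytosine in the 30-nt ANXA11 window against its distance in nt from the first called cytosine (x axis), with MCF10A in blue, MDA-MB-468 in red, filled points for called sites, open points for sites not called and bars for 95% Wilson intervals. The run stands at 80% to 87.5% in MCF10A and 53.3% to 68.8% in MDA-MB-468, while the cytosines around it stay at or below 9.09%.

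The structure predicted for ANXA11 bears on these counts, because the study's methods drop cytosines in predicted stems. Folding the 4 basic transcripts of the gene with RNAfold at 70 degrees paired 6 of the 11 called cytosines in at least 1 transcript, and the pairing probabilities of the 11 ran from 0.292 to 0.975. Without sites paired in the predicted structure of any member transcript, the members' count fell from 11 to 5 in MCF10A and from 14 to 9 in MDA-MB-468. Without sites of pairing probability over 0.5 it fell to 2 and 4. The part of structure in the unconverted reads was not tested.

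Cytosine runs near guanines held every called ANXA11 site. Among the members' kept sites in runs of at least 3 cytosines with 4 guanines in a row within 10 nt, MCF10A had 11 of 31 called (35.5%) and MDA-MB-468 had 10 of 31 (32.3%). ANXA11 held 28 of the 31 in MCF10A and every one in MDA-MB-468. Over all genes, 4.22% and 3.33% of the kept sites of this kind were called. Of the members' sites in such cytosine runs without the guanines, 0 of 343 and 0 of 268 were called, beside 1.34% and 1.09% over all genes. This description was chosen after the called sites were seen and carries no test. By run length alone, runs of at least 4 cytosines gave 8 calls at 144 member sites of MCF10A and 8 at 132 sites of MDA-MB-468 (5.56% and 6.06%), beside 2.27% and 1.86% over all genes.

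Outside the called sites, ANXA11 in MCF10A stayed a little above the background, although that background includes the called sites of all genes. With the called sites left out, 2.38% of its counts were unconverted in MCF10A and 1.32% in MDA-MB-468. At a coverage of at least 20, 24 ANXA11 sites had a ratio of at least 10% in MCF10A, of which 11 were called, and 11 had one in MDA-MB-468, of which 6 were called. The uncalled ones in MCF10A had 3 or 4 unconverted reads at a coverage of 20 to 30, where 5 reads were needed for a call. The shares by region that follow include the called sites, which all lie in the CDS and raise its share alone. By region of the transcript, MCF10A had unconverted shares of 0.880% in the 5′UTR (105 sites), 4.94% in the CDS (370 sites) and 4.79% in the 3′UTR (86 sites). In MDA-MB-468 it was 1.38% (111 sites), 2.02% (359 sites) and 1.72% (145 sites). The 3′UTR share in MCF10A rests on 50 of 1044 counts at a median coverage of 12, where neighboring sites share reads.

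**Figure D2:**
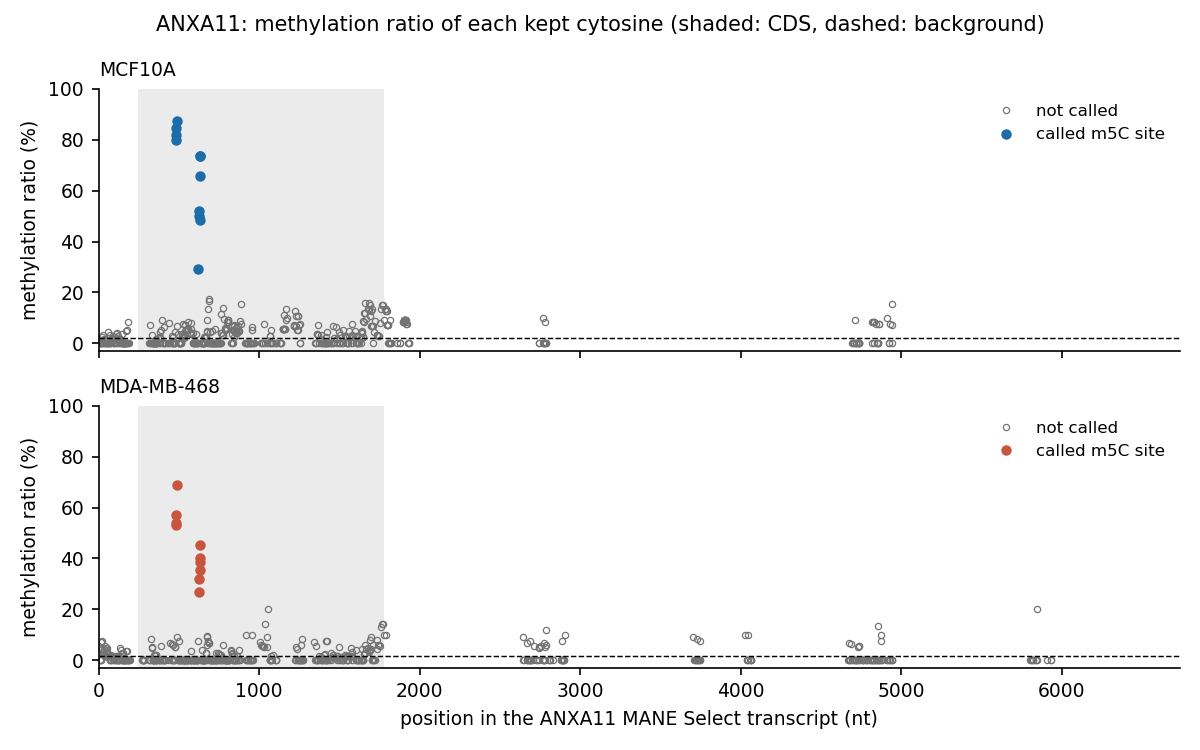
Methylation ratio in percent (y axis) of each kept cytosine against its position in nt in the ANXA11 MANE Select transcript (x axis), with the CDS shaded, the library's background as a dashed line and called m5C sites filled, for MCF10A (top) and MDA-MB-468 (bottom). The called sites stand in exon 5 near the start of the CDS in both lines, and no site elsewhere in the transcript was called.

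ANXA2 carried no m5C site in MCF10A and 1 in MDA-MB-468. ANXA2 (chr15:60639333-60690941, minus strand) joins S100A10 in a complex that binds plasminogen and its activator at the cell surface. The called cytosine, at position 60656682, had 4 of 16 reads unconverted in MDA-MB-468 (25%, interval 10.2% to 49.5%, adjusted p = 0.02131 by Fisher's exact test) and 4 of 192 in MCF10A (2.08%, interval 0.813% to 5.23%). It is in exon 4 of the MANE Select transcript, in codon 63, and in the 5′UTR of another basic transcript, for which it is counted as 5′UTR below. It met the fewest reads that a coverage of 16 allows for a call. The neighboring cytosines stood almost as high. From the first to the last ANXA2 site with an unadjusted p under 0.05 between the libraries, a span of 41 nt, 12 cytosines were kept in both. There 2 to 4 reads were unconverted at a coverage of 10 to 18 in MDA-MB-468, with 3 at 9 of the 12, and 1 to 5 reads at a coverage of 101 to 206 in MCF10A. The window was bounded by the difference itself, so its summed shares, 19.9% in MDA-MB-468 and 1.94% in MCF10A, are a description and their direction is fixed by that choice.

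ANXA5 likewise had no m5C site in MCF10A, and it had 3 in MDA-MB-468. ANXA5 (chr4:122589101-122618135, minus strand) binds exposed phosphatidylserine and is the usual probe for apoptotic cells. In exon 6 (codons 116 to 119 of 320), the 3 sites had 5 of 29, 5 of 28 and 5 of 28 reads unconverted in MDA-MB-468 (17.2%, 17.9% and 17.9%), with adjusted p = 0.02114, 0.01796 and 0.01796 by Fisher's exact test. The same cytosines had 1 unconverted read of 85, 85 and 83 in MCF10A. The cytosines around them were read likewise, in a window of 52 nt bounded in the same way by the outermost sites with an unadjusted p under 0.05. Its 12 cytosines kept in both lines had 2 to 5 unconverted reads at a coverage of 12 to 29 in MDA-MB-468 and 0 or 1 at a coverage of 33 to 85 in MCF10A. The summed shares of 15.9% and 0.949% carry the same limit.

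**Figure D3:**
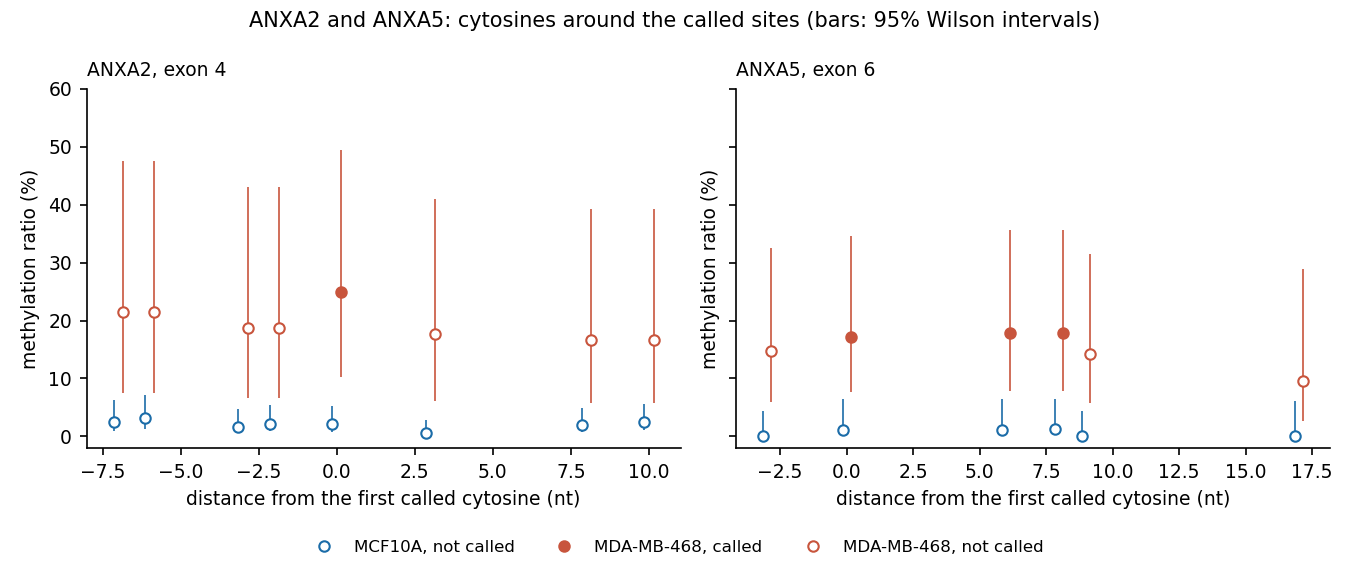
Methylation ratio in percent (y axis) of every cytosine in the 30-nt windows around the called ANXA2 and ANXA5 sites against its distance in nt from the first called cytosine (x axis), with MCF10A in blue, MDA-MB-468 in red, filled points for called sites and bars for 95% Wilson intervals. In MDA-MB-468 called and uncalled cytosines lie close together, at 16.7% to 25% in ANXA2 and 9.52% to 17.9% in ANXA5, and all MCF10A points are at or below 3.11%.

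Neither ANXA2 nor ANXA5 sites were paired in the predicted structures, although their pairing probabilities reached 0.778 and 0.926. All 4 rested on 4 or 5 unconverted reads. At an adjusted p under 0.01 none of them remained, and at a coverage of at least 20 the ANXA2 site was no longer tested. The same setting left out the 4 sites of the ANXA11 run shown in MDA-MB-468, which had a coverage of 13 to 16. Lowering the coverage minimum to 5 added 10 sites in MDA-MB-468, all on ANXA5, of which 9 lay close together at positions 122592730 to 122592765 with 3 or 4 unconverted of 6 or 7 reads. Whether the same few molecules gave the unconverted reads at neighboring cytosines was not tested, because the tables hold counts per cytosine.

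No site was called in ANXA1, ANXA3, ANXA4, ANXA6, ANXA7 or ANXA8. ANXA1 (chr9:75766781-75785309, plus strand), which is induced by glucocorticoids and acts on formyl peptide receptors, had 0 of 133 sites called in MCF10A (a count of 0 allows up to 2.26%) and 0 of 38 in MDA-MB-468 (up to 7.89%). Its highest sites at a coverage of at least 20 had 2 of 26 reads (7.69%, MCF10A) and 2 of 32 (6.25%, MDA-MB-468), both in the CDS. ANXA4 (chr2:69969106-70054244, plus strand), a membrane-binding annexin of secretory epithelia, had 0 of 110 (up to 2.73%) and 0 of 30 (up to 10%), and its highest site had 3 of 30 reads in MCF10A (10%).

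ANXA6 (chr5:150480267-150537376, minus strand), whose repeat core is duplicated, had 0 of 259 sites called in MCF10A (up to 1.16%) and 0 of 63 in MDA-MB-468 (up to 4.76%). Its highest site had 2 of 22 reads in MCF10A (9.09%), and in MDA-MB-468 no site at a coverage of at least 20 had an unconverted read. ANXA7 (chr10:75134859-75173816, minus strand), or synexin, which promotes fusion of secretory vesicles, had 0 of 161 (up to 1.86%) and 0 of 121 (up to 2.48%), with highest sites of 2 of 21 reads (9.52%) and 2 of 33 (6.06%). A coverage of 18, the median of ANXA7 in MCF10A, needs 4 unconverted reads (22.2%) for a call, so weakly methylated sites were not detectable at this depth.

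ANXA3 and ANXA8 could hardly be read. ANXA3 (chr4:79472901-79531601, plus strand) had 2 kept sites in MCF10A, each with 0 of 11 reads unconverted, and none in MDA-MB-468. Their 22 counts allow a share of up to 13.6%. The 2 sites lie close together and can share reads, so this limit is too low. ANXA8 (chr10:48255204-48279200, plus strand), first known as a vascular anticoagulant, had no count in either table. For 949 of its 1019 cytosines (93.1%) the 31-nt context, read with cytosines converted, also occurs elsewhere in the genome, on the near-identical ANXA8L1 for 495 of them and on ANXA8L2 for 477. Low expression and reads lost for lack of a unique position therefore cannot be told apart for ANXA8. Sharing also touched ANXA2, for which 245 of 624 contexts (39.3%) occur elsewhere, 181 of them on its pseudogene ANXA2P2. Of the kept ANXA2 sites, such a context belongs to 52 of 138 in the MCF10A table and 30 of 90 in the other, so their reads are uncertain between gene and pseudogene. None of the 15 called sites does.

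Over all members, 11 of 1611 sites were called in MCF10A (0.683%, interval 0.382% to 1.22%) against 0.96% of all kept sites in that library. In MDA-MB-468, 14 of 1034 were called (1.35%, interval 0.808% to 2.26%) against 0.84%. Both intervals hold the share over all sites, and the calls were uneven between members. Without ANXA11, 0 of 1050 sites were called in MCF10A (up to 0.286%) and 4 of 419 in MDA-MB-468 (0.955%). By gene, 1 of 8 annexins had a called site in MCF10A, where 21.1% of protein-coding genes with kept sites had one, and 3 of 7 in MDA-MB-468, where 16.9% did.

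By region of the mRNA, all called sites but the ANXA2 one were counted in the CDS. There 11 of 1185 member sites were called in MCF10A (0.928%) beside 0.615% of all CDS sites, and 13 of 700 in MDA-MB-468 (1.86%) beside 0.551%. In the 5′UTR, where 2.24% and 1.95% of all sites were called, the members had 0 of 223 in MCF10A (up to 1.35%) and 1 of 152 in MDA-MB-468, the ANXA2 site. ANXA2 gave 40 of the 223 and 25 of the 152. Some of these, like the called one, lie in the CDS of its MANE Select transcript. In the 3′UTR they had 0 of 203 (up to 1.48%) and 0 of 182 (up to 1.65%), limits that hold the 0.837% and 0.740% of all 3′UTR sites called. A few genes gave these counts, and sites of a stretch share reads, so no test was run on the regions. Of the sequence motifs examined, CNGGG began at 45 kept sites of MCF10A and 37 of MDA-MB-468, of which 2 were called in each (4.44% and 5.41%, beside 2.20% and 1.84% over all genes). CTCCA began at 11 and 8, of which none was called, beside 0.681% and 0.491% over all genes, and so few sites could not show a difference. Both motifs were read on the strand of the transcript alone.

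Pooled over all kept sites, called or not, the annexins differed in their unconverted share. In MCF10A it ran from 1.33% in ANXA7 (interval 0.998% to 1.78%) through 1.61% in ANXA6, 1.70% in ANXA2, 1.94% in ANXA4, 2.03% in ANXA1 and 2.59% in ANXA5 (2.33% to 2.88%) to 3.72% in ANXA11 (3.45% to 4.02%), with ANXA3 at 0 of 22. The intervals of neighbors in this order overlap except between ANXA5 and ANXA11. In MDA-MB-468 the order was ANXA6 at 0.442% (0.172% to 1.13%), ANXA4 at 0.775%, ANXA1 at 1.11%, ANXA7 at 1.38%, ANXA2 at 1.57%, ANXA11 at 1.83% (1.65% to 2.03%) and ANXA5 at 4.51% (3.69% to 5.49%), and here all neighbors overlapped except ANXA11 and ANXA5. Several places in these orders depend on the processing. As the unweighted mean of site ratios, ANXA2 in MDA-MB-468 had 4.30% in place of 1.57%, above ANXA11 at 2.19%. At a coverage of at least 20, ANXA7 in MDA-MB-468 had 0.699%, ANXA7 in MCF10A 0.877% and ANXA6 in MCF10A 1.01%, and ANXA6 in MDA-MB-468 had no unconverted read. At a coverage of at least 5, ANXA5 in MDA-MB-468 had 7.30%, ANXA4 in MDA-MB-468 1.79% and ANXA7 in MCF10A 2.01%. Which line was higher turned with these settings for ANXA2, ANXA4 and ANXA7. Each interval covers counting error only and is too narrow, since a read gives counts at several cytosines.

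ANXA11 had the highest share in MCF10A and ANXA5 in MDA-MB-468. The ANXA11 lead in MCF10A rests on its 11 called sites, without which its share was 2.38% and that of ANXA5 2.59%. Among genes with at least as many kept sites, the ANXA11 share exceeded that of 96.8% of genes in the MCF10A library but 71.7% in the MDA-MB-468 one. The ANXA5 share was above that of 82.5% and of 97.8%. Outside its 52-nt window, the 65 other ANXA5 sites kept in both lines had 2.93% in MDA-MB-468 and 2.76% in MCF10A. That window was bounded by the difference, so leaving it out narrows the difference by that choice. At the other end, the ANXA6 share in MDA-MB-468 (4 of 904 counts) was above that of only 0.438% of such genes, and in MCF10A (84 of 5201) above that of 35.6%. Over all members together, 2.45% of 62103 counts were unconverted in MCF10A (2.33% to 2.57%) and 1.82% of 34358 in MDA-MB-468 (1.68% to 1.96%), and the called sites gave 15.8% and 18.8% of those unconverted reads.

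**Figure D4:**
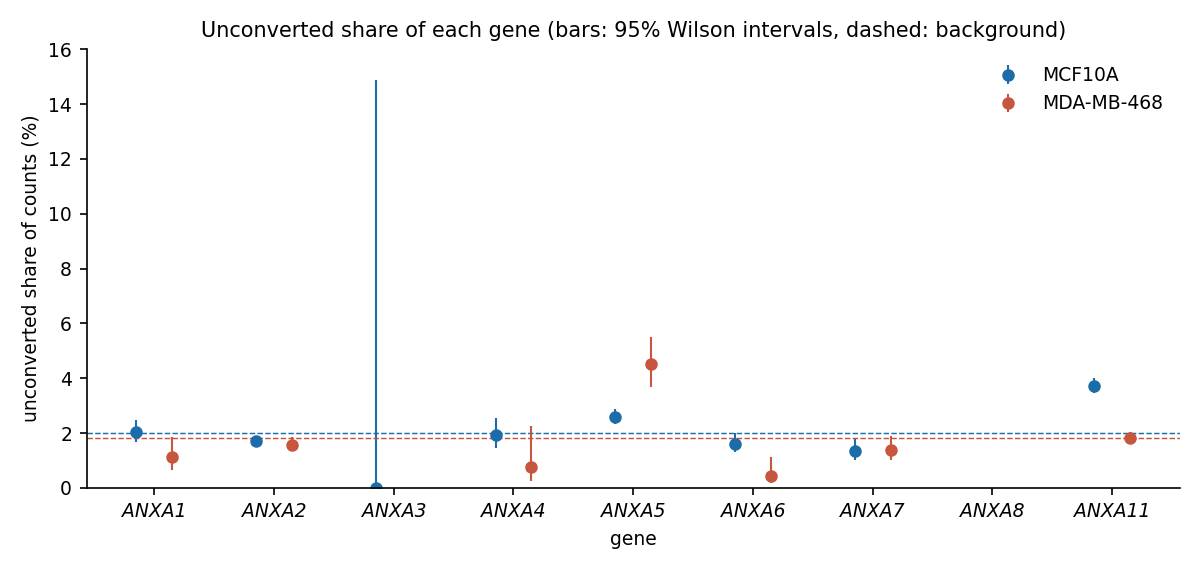
Unconverted share of counts in percent (y axis) for each annexin gene (x axis) over its kept sites, with MCF10A in blue, MDA-MB-468 in red, bars for 95% Wilson intervals and dashed lines for the background of each library. The whole intervals of ANXA11 in MCF10A (3.72%) and ANXA5 in both lines (2.59% and 4.51%) lie above the background. The points of ANXA1 in MCF10A and ANXA11 in MDA-MB-468 lie just above it. ANXA3 has 22 counts in MCF10A alone, and ANXA8 has none.

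Site by site, the question of which annexin cytosines differed between the 2 libraries was tested on the 907 member sites kept in both. None of them passed the two-sided Fisher's exact test after adjustment over all 812729 shared sites, of which 0.0691% were higher in MCF10A and 0.0202% higher in MDA-MB-468 at an adjusted p under 0.05. The ratio was higher in MCF10A at 361 of the 907 sites, higher in MDA-MB-468 at 218 and equal at 328. Over all 812729 shared sites it was higher in MCF10A at 274856, higher in MDA-MB-468 at 195440 and equal at 342433. Before adjustment 25 member sites (2.76%) had p under 0.05, beside 1.14% of all shared sites. Of these 25, 21 were higher in MDA-MB-468 (12 in the ANXA2 window, 8 in the ANXA5 window and 1 in ANXA7) and 4 were higher in MCF10A, all on ANXA11. These are 2.32% and 0.441% of the member sites, beside 0.4% and 0.743% of all shared sites. The lowest p was that of the ANXA2 site at 60656682 (p = 0.001386 by Fisher's exact test, adjusted p = 0.804).

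The 11 called ANXA11 sites were all higher in MCF10A, and their unadjusted p by Fisher's exact test ran from 0.01085 to 0.4644. When the adjustment covered only the 12052 shared sites called in at least 1 line, 4 member sites passed, the ANXA2 site (adjusted p = 0.01404 by Fisher's exact test) and the 3 ANXA5 sites (0.02849 to 0.03145), all higher in MDA-MB-468. Those sites enter that smaller set through their calls in MDA-MB-468, so the choice favors this direction. Across the 492 ANXA11 sites kept in both lines the ratios correlated with Pearson's r = 0.88 and Spearman's rho = 0.16, values that describe sites sharing reads within each library. Over all 907 shared member sites r was 0.71, and over the 892 of them that were called in neither line it was 0.095.

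The depth behind these values differed between members. Given as counts per exonic cytosine, a measure per length, it fell in MCF10A from 37.9 in ANXA5 and 26.4 in ANXA2 to 10.96 in ANXA1, 10.1 in ANXA11, 7.68 in ANXA6, 7.54 in ANXA7, 5.20 in ANXA4 and 0.670 in ANXA3. In MDA-MB-468 it fell from 13.9 in ANXA2 and 10.9 in ANXA11 to 7.80 in ANXA5, 7.06 in ANXA7, 3.51 in ANXA1, 2.48 in ANXA6, 1.29 in ANXA4 and 0.635 in ANXA3. With 1 library each these orders have no replicate error.

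Relative to all nuclear counts of its library, MCF10A over MDA-MB-468 was 5.80 for ANXA5, 4.81 for ANXA4, 3.72 for ANXA1, 3.71 for ANXA6 and 2.27 for ANXA2, beside a median of 1.74 over 6781 genes. It was 1.28 for ANXA7, 1.26 for ANXA3 and 1.10 for ANXA11. Relative to the counts on kept exonic nuclear sites alone, the median over genes was 1.01, the former genes had 3.39, 2.81, 2.17, 2.16 and 1.33, and ANXA7, ANXA3 and ANXA11 had 0.745, 0.735 and 0.643, so the direction for these 3 turns with the scale. Fewer cells with the transcript and less RNA per cell cannot be told apart in such libraries. ANXA5 thus had its higher unconverted share in the library where it was read less deeply, and the part of depth in that difference was not tested. The difference lay mostly in its 52-nt window, outside which the shares were 2.93% in MDA-MB-468 and 2.76% in MCF10A.

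**Figure D5:**
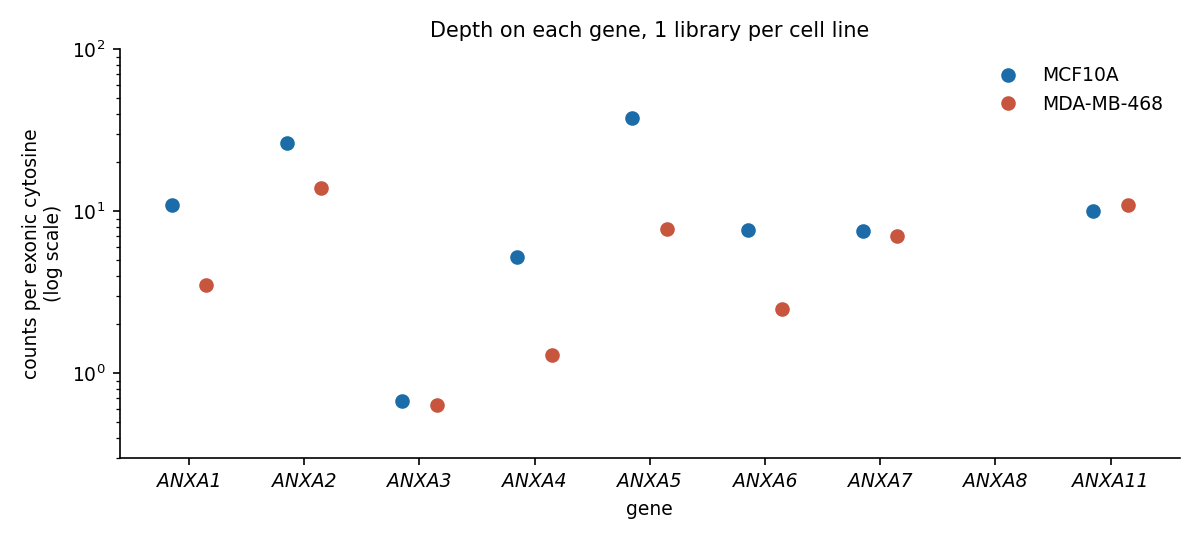
Depth as counts per exonic cytosine on a log scale (y axis) for each annexin gene (x axis), with MCF10A in blue and MDA-MB-468 in red, 1 library each. ANXA5 falls from 37.9 in MCF10A to 7.80 in MDA-MB-468, ANXA11 is near 10.1 and 10.9, and ANXA8, without counts, has no point.

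Of the remaining annexin genes, ANXA8L1, ANXA9, ANXA10 and ANXA13, none had a kept site in MCF10A and ANXA9 alone had 13 in MDA-MB-468, none of them called. Among 13 genes for annexin partners, 6 of the 10 with kept sites carried m5C sites in MCF10A (89 of 4241 sites, 2.10%) and 4 of 8 in MDA-MB-468 (47 of 2291, 2.05%). For comparison, 21.1% and 16.9% of protein-coding genes with kept sites had one, and 0.96% and 0.84% of all kept sites were called. The partners were uneven. AHNAK alone held 2944 of the 4241 sites and 1588 of the 2291, and 0.985% and 0.945% of these were called. PDCD6, the partner of ANXA11, had calls at 14 of 168 sites in MCF10A and at 15 of 171 in MDA-MB-468. S100A11, the ligand of the ANXA1 tail, had 31 of 72 and 10 of 54, whereas S100A10, the partner of ANXA2, had 0 of 114 and 0 of 85.

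The libraries held 76098976 counts at 3146911 sites in MCF10A and 90960018 at 3489803 sites in MDA-MB-468, and the median kept site was covered by 18 reads in each. All 5 epithelial markers were read less deeply in MCF10A. CDH1 and EPCAM were near 0 there (0.0279 and 0.0111 counts per cytosine) against 2.91 and 13.6 in MDA-MB-468. The keratins KRT8, KRT18 and KRT19 had kept sites in both lines, at 8.51, 9.60 and 4.39 in MCF10A against 68.9, 104.7 and 1289. Of the 42 kept KRT19 sites in MCF10A, 40 were called, with 63.9% of counts unconverted. The basal keratins KRT5 and KRT17 were read in both, and KRT14 had no kept site. The leukocyte markers PTPRC and CD3E and the endothelial marker VWF were at 0 in both lines. Of the fibroblast markers COL1A2 and COL3A1 were at 0 in both, and COL1A1 was at 0.170 in MCF10A and 3.35 in MDA-MB-468.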

How the data were processed

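Per the labels, poly(A)+ RNA of each cell line was treated with bisulfite and sequenced as 1 library. The authors trimmed and aligned the reads to hg19 and deposited raw counts of unconverted (m5C) and converted reads per cytosine, without normalization. The submitters' processing notes name Trim Galore and Bismark, while the methods describe MeRanTK for RNA. Versions are not given in the sources used here. The deposited counts start at a coverage of 5. All 3142952 and 3486293 nuclear sites fell on cytosines of GRCh37.

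Kept sites had 10 or more reads and lay on same-strand exons of GENCODE release 44 basic transcripts or on the mitochondrial chromosome. Each site's counts were set against the summed counts of its library in a one-sided Fisher's exact test, and shared sites by a two-sided Fisher's exact test between libraries, with Benjamini-Hochberg adjustment over all sites at 0.05. The methods' differential tool was not used. Shares carry 95% Wilson intervals, and a count of 0 allows 3 counts of the total. Intervals and limits cover counting error only, since reads had no molecular identifiers. Where a site lies in several regions, 5′UTR was counted before CDS and CDS before 3′UTR. The 42 basic transcripts of the members were folded with RNAfold (ViennaRNA 2.7.2, MEA gamma 0.1, 70 degrees, pairing distance up to 150 nt). The structure filter served as an alternative, on the members alone. Other alternatives changed the coverage minimum, background, test, threshold, minimum ratio, region priority and set of sites.

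Named sites were the called sites and, for members without calls, the site with the highest ratio at a coverage of at least 20. Called sites with gaps of at most 10 nt were joined into stretches, of which 1 is not reported here apart from the counts it enters. The members and lists were chosen with earlier results of these data known. The tests were checked on simulated data. Versions used were matplotlib 3.10.9, scipy 1.17.1, numba 0.67.0, pandas 2.3.3, numpy 2.4.6 and Python 3.11.15.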

Additional observations from a re-analysis of the deposited data

How the results depend on the processing

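MCF10A had 11 called sites and MDA-MB-468 had 14. Leaving out sites paired in the predicted structure gave 5 and 9 (5 and 8 within the CDS), and leaving out those of pairing probability over 0.5 gave 2 and 4. A coverage of at least 20 gave 9 in MDA-MB-468 and a coverage of at least 5 gave 24, while MCF10A stayed at 11 in both. Pooled over the genes, the unconverted share moved from 2.448% in MCF10A to 2.805% as the unweighted mean of site ratios, 2.073% without called sites and 2.304% without paired sites. In MDA-MB-468 it moved from 1.816% to 2.432% as the unweighted mean, 1.49% without called sites, 1.551% at a coverage of at least 20 and 2.082% at a coverage of at least 5. The count of sites differing between the libraries was 0, and 4 when only called sites were tested. Those 4 entered the smaller set through their calls in MDA-MB-468, where they are higher, so the choice favors that direction. Of 87 values for the shares of single genes, 70 stayed within the interval and 17 did not. The higher line turned for ANXA7 at a coverage of at least 20 (0.877% in MCF10A, 0.699% in MDA-MB-468), at a coverage of at least 5 (2.01%, 1.469%) and without paired sites (1.397%, 1.201%), for ANXA2 at a coverage of at least 5 (1.679%, 1.694%) and unweighted (1.952%, 4.299%), and for ANXA4 at a coverage of at least 5 (1.773%, 1.786%). Without sites that are not shared, ANXA6 in MCF10A had 1.061%. The called sites, counted in each line, gave 250 pairs of site and alternative. In 35 of these the alternative removed the site (11 by structure, 19 by pairing probability and 5 by a coverage of at least 20). Of the other 215, 208 stayed past the threshold and 7 did not, all of these on ANXA2 and ANXA5 in MDA-MB-468 at an adjusted p under 0.01 or a ratio of at least 0.2. The background, the binomial test and the removal of sites on a second gene changed no count. No paired analysis was possible because each cell line has 1 library. At a coverage of 10 a call needed 4 unconverted reads (40%) and at 100 it needed 9 (9%), so low ratios were not detectable on the thinly read members.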
